A study of Mus musculus with 32 samples.

Results

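Common gamma chain cytokine receptors are the receptors for IL-2, IL-4, IL-7, IL-9, IL-15 and IL-21, which share 1 signalling chain. The genes described here are the shared chain Il2rg, the kinase Jak3 that binds it, and 7 chains that pair with it: Il2rb, Il2ra, Il15ra, Il7r, Il9r, Il21r and Il4ra. They were chosen by symbol, 9 of the 24475 genes in the expression tables, together with every binding peak that the deposited peak lists assign to 1 of those symbols, 246 of 215616 peaks. The Bcl11b, Runx1 and Runx3 lists leave the gene name of some peaks empty, and 18 such peaks have an Il7r transcript as their nearest promoter. These 18 peaks were added for Il7r after the lists had been seen, and both counts of peaks are given where they differ. Counts of sites, made by merging overlapping peaks, include all 18.

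The study used mouse cells of lymphoma-derived Scid.adh.2c2, which resemble pro-T cells, and of ILC2/b6, a line that models group 2 innate lymphoid cells (ILC2s), makers of type 2 cytokines. For RNA-seq each line was transduced with sgControl-CFP, a control guide RNA, or with sgBcl11b-CFP. The latter targets Bcl11b, which encodes a transcription factor of T cells and ILC2s, and there were 4 groups of 2 libraries. For ChIP-seq, Bcl11b, GATA3, Runx1 and Runx3 were each precipitated from 2 samples of each line with no guide named, and each factor and line gave 1 peak list. Each line is 1 culture model. The ILC2/b6 medium held 3 cytokines at 10 ng/ml each, among them the receptor ligands IL-2 and IL-7 (the other was IL-33), and none is named for Scid.adh.2c2, so the effects of line and medium cannot be told apart. Whether libraries of a group were separate cultures is not given in the labels, and p-values then measure only the spread between these libraries, which may be technical. The comparison asks which of these receptor genes depend on Bcl11b in each line, and where Bcl11b and its partner factors bind near them.

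In each of these receptors a chain that binds the kinase JAK1 pairs with the common gamma chain, which binds JAK3. That chain is particular to the ligand in most of them and is Il2rb for both IL-2 and IL-15. The kinases phosphorylate STAT proteins, mainly STAT5 for IL-2, IL-7, IL-9 and IL-15, STAT6 for IL-4 and STAT3 for IL-21. The receptors control survival and growth of lymphocytes: IL-7 is needed by early T cells and ILCs, IL-15 by NK cells, and IL-2, IL-7, IL-9 and IL-4 act on ILC2s.

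The promoters of Il2ra, Il9r and Il21r are shown because peaks lay over them and each holds a short motif that Runx proteins are known to bind. The same is true of Il2rg, which is not shown and whose RUNX motif stands farther from the start. They are the 250 bases before the start site in RefSeq's GRCm38.p6 annotation, 5′ to 3′ on the strand of the gene. Capitals mark the RUNX motifs TGTGGT and TGCGGT and the GATA motifs AGATAA and TGATAA, on either strand. Il2ra lies at chr2:11642542-11642791 (plus strand), Il9r at chr11:32200280-32200529 (minus strand) and Il21r at chr7:125603179-125603428 (plus strand). The peak positions below are on mm9, another build, so they are set beside these windows only as distances from a start site, which can differ between annotations.
Il2ra: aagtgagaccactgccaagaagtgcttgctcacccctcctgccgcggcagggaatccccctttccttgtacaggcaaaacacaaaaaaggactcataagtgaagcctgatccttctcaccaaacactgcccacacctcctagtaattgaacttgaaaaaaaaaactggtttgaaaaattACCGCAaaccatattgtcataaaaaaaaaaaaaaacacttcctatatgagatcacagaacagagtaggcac
Il9r: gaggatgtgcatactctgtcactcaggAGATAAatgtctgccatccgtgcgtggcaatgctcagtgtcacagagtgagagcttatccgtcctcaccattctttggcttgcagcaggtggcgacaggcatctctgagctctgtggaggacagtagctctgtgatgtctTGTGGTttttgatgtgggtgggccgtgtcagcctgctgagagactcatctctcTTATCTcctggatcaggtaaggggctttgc
Il21r: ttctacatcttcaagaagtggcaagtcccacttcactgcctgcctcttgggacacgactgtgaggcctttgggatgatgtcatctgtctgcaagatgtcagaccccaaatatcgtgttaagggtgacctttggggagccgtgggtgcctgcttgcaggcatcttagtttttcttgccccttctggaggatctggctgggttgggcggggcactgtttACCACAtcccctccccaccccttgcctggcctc
In Il2ra the RUNX motif runs from 71 to 66 bases before the start and reads TGCGGT on the opposite strand. In Il9r TGTGGT stands 83 to 78 bases before the start, and AGATAA occurs at 2 places, 223 to 218 bases before it and, on the opposite strand, 30 to 25 bases before it. In Il21r TGTGGT is on the opposite strand, 33 to 28 bases before the start. RefSeq promoter entries were matched for 8 of the 9 genes (9 windows, as Il15ra has 2), all but Il2rb. At least 1 of the RUNX motifs was in 4 of the 9 windows (also in Il2rg, 227 to 222 bases before the start), against 18.6% of all 32851 windows. At least 1 GATA motif was in 1 of the 9, against 16.6% of all. The STAT motif TTCNNNGAA was in the Il7r window, 142 to 134 bases before the start, and in 7.02% of all windows. None of these motifs overlapped another in the windows shown.

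The RNA libraries held 34.7 to 43.7 M reads (M, mega), worked out from the steps between low values. RPKM is the number of reads scaled to transcript length and library depth, so levels of different genes can be set in order within a library. The mRNA of the targeted gene Bcl11b was at 47.0 and 49.5 RPKM (control guide) and 47.1 and 46.8 RPKM (Bcl11b guide) in Scid.adh.2c2, and at 6.85 and 6.33 against 7.04 and 7.24 RPKM in ILC2/b6. It was not lower with the guide in ILC2/b6 and overlapped between guides in Scid.adh.2c2. Editing need not lower an mRNA, so these values do not test the labels. T-lineage markers summed to 885 and 889 RPKM in the Scid.adh.2c2 controls and to 4.65 and 3.90 RPKM in the ILC2/b6 controls, where all 10 ILC2 markers reached 1 RPKM. With the Bcl11b guide in Scid.adh.2c2, T-lineage markers summed to 644 and 649 RPKM. There, NK-cell markers at 1 RPKM or more in both libraries numbered 6 of 9, against 2 in the controls. Their sum was 252 and 255 RPKM against 215 and 203 RPKM. The ILC2 markers at that level numbered 7 of 10 against 4, with a sum of 333 and 339 RPKM against 140.2 and 139.7 RPKM. Most of the higher sum was 1 gene of that list, Id2, at 214 and 218 RPKM against 47.7 and 43.2 RPKM. In ILC2/b6 the summed ILC2 markers were 8659 and 8837 RPKM with the control guide and 6226 and 6378 RPKM with the Bcl11b guide. Of these, Il13 was at 4472 and 4406 against 3025 and 3151 RPKM. The NK-cell markers there summed to 811 and 810 against 645 and 689 RPKM. Of these 9 markers, 2 reached 1 RPKM in both libraries with either guide, so the sums rest on few genes and do not describe the list as a whole. Mast-cell markers, of which 1 of 7 reached 1 RPKM in both groups of Scid.adh.2c2 and 3 (control) and 4 (guide) in ILC2/b6, summed to more with the guide in both lines, at 23.6 and 21.4 against 62.7 and 63.0 RPKM in Scid.adh.2c2 (Mcpt4, Tpsb2 and Fcer1a at 0) and 27.9 and 28.8 against 89.5 and 90.4 RPKM in ILC2/b6 (Ms4a2 at 0). Myeloid markers summed to 3.41 and 2.95 against 8.88 and 8.09 RPKM in Scid.adh.2c2 (Cebpa at 0) and to at most 1.70 RPKM in ILC2/b6 (Csf1r, Lyz2 and Spi1 at 0). Stromal markers summed to 5.53 and 5.97 against 1.46 and 1.33 RPKM in Scid.adh.2c2 (Col3a1, Pdgfra and Dcn at 0) and to 5.76 and 6.28 against 13.0 and 11.2 RPKM in ILC2/b6 (Col3a1 at 0). B-cell markers summed to at most 5.03 RPKM in any library, with Pax5 and Ms4a1 at 0 in all. The part of these shifts in the results below was not tested, and in bulk RNA fewer cells of a type and less RNA per cell cannot be told apart.

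With the control guide, Il2ra had the highest level of the 9 genes in both lines, and the lines differed most in Il2rb and Il4ra. In Scid.adh.2c2 the order of mean levels was Il2ra (159 RPKM), Il2rg (50.0), Il7r (28.5), Il15ra (14.2), Jak3 (13.1), Il9r (11.8), Il2rb (1.68), Il21r (1.204) and Il4ra (0.0215). Of neighbours in that order, the libraries of Il15ra and Jak3 overlapped and those of the other pairs did not. In ILC2/b6 the order was Il2ra (911 RPKM), Il2rg (195), Il2rb (153), Jak3 (90.4), Il4ra (83.2), Il7r (68.4), Il9r (46.8), Il15ra (5.28) and Il21r (2.14), with no overlap between neighbours. The tables were made separately for each line, so levels across lines stand side by side with no test. The control mean in ILC2/b6 was 90.8 times that in Scid.adh.2c2 for Il2rb, 6.88 times for Jak3, 5.72 times for Il2ra, 3.98 times for Il9r, 3.91 times for Il2rg, 2.4 times for Il7r and 1.78 times for Il21r. Il15ra was the exception, 2.69 times higher in Scid.adh.2c2. All 9 genes have the same transcript model and length in both tables and overlap no other listed gene.

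**Figure D1:**
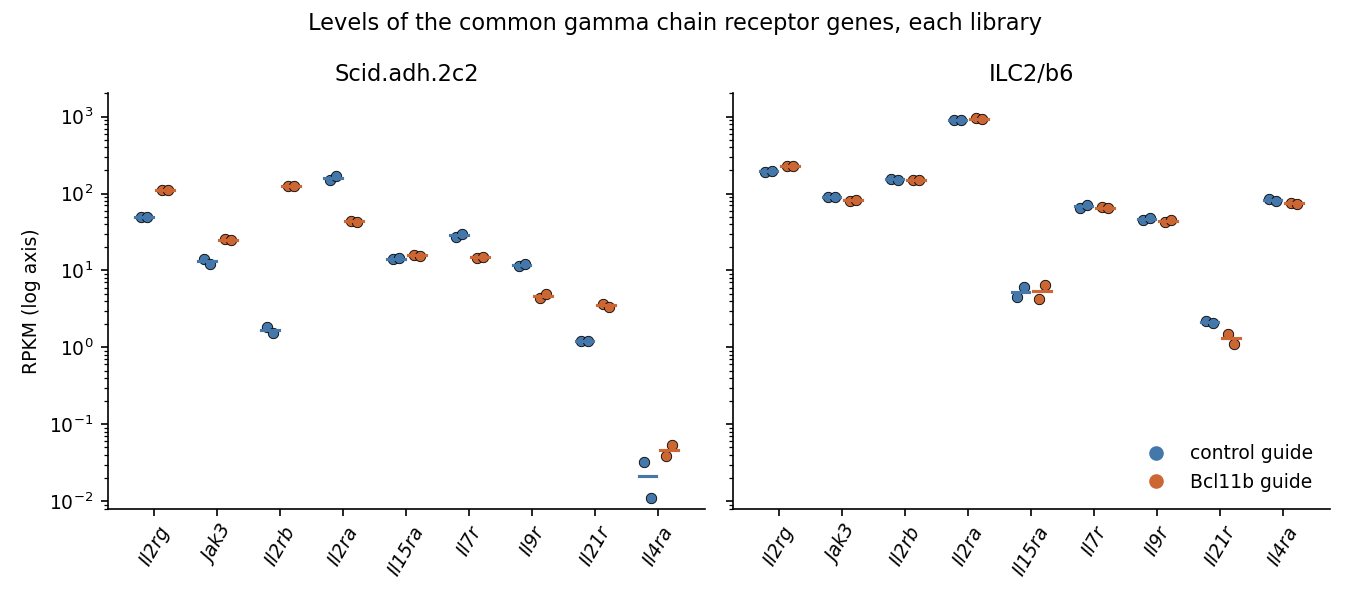
RPKM (log axis) of the 9 genes in each RNA library, by line and guide, with points for the 2 libraries of a group and a bar at their mean. Il2rb moves from 1.54 to 1.83 RPKM up to 126 RPKM with the Bcl11b guide in Scid.adh.2c2, while in ILC2/b6 both guides leave it between 149 and 156 RPKM.

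In Scid.adh.2c2 the receptor genes moved in opposite directions with the Bcl11b guide: Il2rb, Il21r, Il2rg and Jak3 rose, Il2ra, Il9r and Il7r fell, and Il15ra rose slightly. Of the 8 genes tested, 5 rose and 3 fell at an adjusted p under 0.05, against 57.8% of all 10221 genes called (35.1% up and 22.7% down). With so many genes called, passing the test sets no gene apart, and the sizes of the changes say more. The median log2 fold change was 0.53 over the 8 genes and 0.05 over all genes tested. Of the 8, 5 were called with at least a 2-fold change (Il2rb, Il21r, Il2rg, Il2ra and Il9r), against 8.43% of all. Fewer genes were called over the whole table without Bcl11b guide library 1 (3818) or 2 (3760) than with all libraries (5908). The median of all genes was 0.13 higher on the log2 scale in the guide libraries than in the controls, a shift about as large as the change of Il15ra. The other 7 calls held with median-centred values, with quantile normalization and under every other alternative tried.

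With the same guide the receptor genes of ILC2/b6 changed little, with log2 fold changes from -0.55 to 0.23. Of the 9 genes, Il2rg rose and Il4ra, Il21r and Jak3 fell, against 14.5% of all 10526 genes called (8.32% up and 6.21% down), and 5 did not pass the test. The median log2 fold change was -0.06 over the 9 genes and 0.02 over all genes tested. The 3 falls are at the edge of the test: with no filter on low values, without control library 1 and without guide library 2 none of the 3 was called (the closest adjusted p was 0.0686), and without guide library 1 and in the joint fit of all 8 libraries 1 was. The number called over all genes also moved, to 615 with no filter, 923 without guide library 1 and 807 without guide library 2, from 1530.

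The difference of the guide effect between lines, ILC2/b6 minus Scid.adh.2c2, was tested over all 8 libraries. It passed for 7 of the 9 genes, 3 upward (Il2ra, Il9r and Il7r) and 4 downward (Il2rb, Il21r, Jak3 and Il2rg), against 45.1% of all 11600 genes (18% up and 27.1% down).

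**Figure D2:**
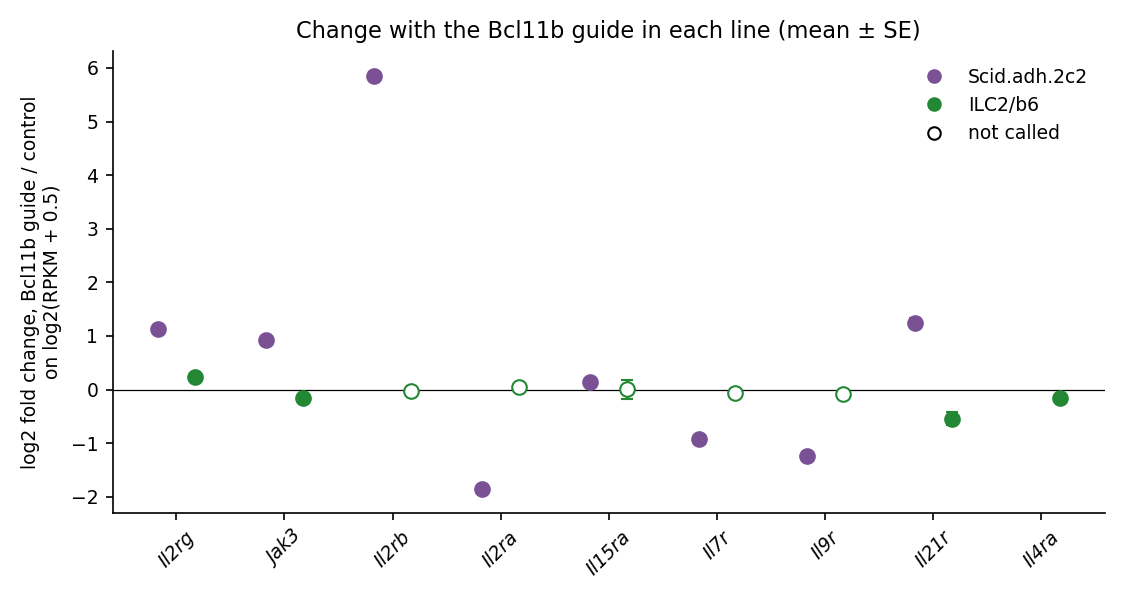
Log2 fold change of each gene with the Bcl11b guide over the control guide, on log2(RPKM + 0.5), in Scid.adh.2c2 and ILC2/b6, with bars for the SE (smaller than most points). Filled points passed the test, and Il4ra has no point in Scid.adh.2c2, where it was not tested. Changes range from -1.86 to 5.86 in Scid.adh.2c2 and from -0.55 to 0.23 in ILC2/b6.

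Il2rg, the common gamma chain (NM_013563, chrX:98459724-98463594, mm9, minus strand), had 50.1 and 49.8 RPKM in the controls of Scid.adh.2c2 and 111 and 110 RPKM in the guide libraries. Every guide library was above both controls. Groups did not overlap for 80% of all genes tested in this line and for 59.9% in ILC2/b6, so lack of overlap sets no gene here or below apart. The log2 fold change was 1.14 ± 0.04 (SE, adjusted p = 3.76e-07). In ILC2/b6 it went from 193 and 197 RPKM to 231 and 229 RPKM, again without overlap (0.23 ± 0.03, adjusted p = 0.00482), so it was the member that rose in both lines. The rise was larger in Scid.adh.2c2, with a difference of -0.90 ± 0.04 between lines (adjusted p = 1.10e-06). Few peaks were assigned to Il2rg, and no Bcl11b peak in either line. A GATA3 peak stood in an intron 1.9 kb past the start in both lines. Runx1 and Runx3 peaks lay over the start in ILC2/b6, 54 and 26 bases before it, and the Scid.adh.2c2 list had a Runx3 peak 610 bases before it.

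Jak3, the kinase of the common gamma chain (NM_001190830, chr8:74200282-74212212, plus strand), was measured at 14.3 and 12.02 RPKM in the Scid.adh.2c2 controls and 25.4 and 24.9 RPKM with the Bcl11b guide. The groups did not overlap, and the log2 fold change was 0.92 ± 0.08 (adjusted p = 6.51e-05). In ILC2/b6 it was 90.4 and 90.3 RPKM in the controls and 79.4 and 83.6 RPKM with the guide (-0.15 ± 0.04, adjusted p = 0.0434), 1 of the falls that are not stable, with adjusted p up to 0.326 when single libraries are left out. The effects differed between lines by -1.06 ± 0.10 (adjusted p = 6.42e-05). In exon 1, Runx1 and Runx3 peaks stood 124 to 158 bases past the start in both lines. Their scores were low in Scid.adh.2c2 (16.1 and 24.0) and in the upper part of the list in ILC2/b6 (108.2 and 145.7). ILC2/b6 also had a Bcl11b peak there, 156 bases past the start, and another 1.36 kb past it. Scid.adh.2c2 had no Bcl11b peak assigned to Jak3.

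Il2rb, the signalling chain shared by the IL-2 and IL-15 receptors (NM_008368, chr15:78310979-78325496, minus strand), had the largest rise of any gene tested in Scid.adh.2c2. The control libraries had 1.83 and 1.54 RPKM (215 and 143 reads) and the guide libraries 126 and 126 RPKM, a mean of 126 ± 0.428 RPKM (SD, n = 2) against 1.68 ± 0.210 RPKM. The log2 fold change was 5.86 ± 0.07 (adjusted p = 1.76e-08), rank 1 of 10221, and the ratio of mean RPKM was 74.7. With ILC2/b6 cells it was at 156 and 149 RPKM with the control guide and 149 and 150 RPKM with the Bcl11b guide, and the groups overlapped (-0.03 ± 0.04, adjusted p = 0.573). The difference between lines was -5.89 ± 0.08 (adjusted p = 1.39e-08). With the Bcl11b guide the Scid.adh.2c2 level was 0.823 times the ILC2/b6 control level, from 0.0110 times with the control guide.

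The promoter of Il2rb carried different sets of factors in the lines. In ILC2/b6 all 4 factors had a peak 68 to 123 bases before the start, with scores of 69.0 for Bcl11b, 113.1 for Runx1, 172.7 for GATA3 and 247.4 for Runx3. In Scid.adh.2c2 the same site had GATA3 (108.0) and a Runx3 peak near the threshold of its list (15.9), and no Bcl11b or Runx1 peak. The 1 Bcl11b peak assigned to Il2rb in Scid.adh.2c2 lay 17.1 kb upstream at chr15:78342446-78342682, with a score of 23.5 and a Runx3 peak over it. ILC2/b6 had Bcl11b, Runx1 and Runx3 together at 2 more sites, 1.3 kb past the start and 15.3 kb before it, neither of them with a peak in Scid.adh.2c2. Of the 5 sites of Il2rb, 1 was shared by the lines.

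Il2ra, the alpha chain that raises the affinity for IL-2 (NM_008367, chr2:11564419-11614821, plus strand), fell in Scid.adh.2c2 from 150 and 168 RPKM to 44.3 and 42.8 RPKM. Both guide libraries were far below both controls (-1.86 ± 0.06, adjusted p = 3.71e-07), and the control mean was 3.66 times the guide mean. ILC2/b6 had 915 and 907 RPKM with the control guide and 947 and 925 RPKM with the Bcl11b guide, a change that did not pass the test (0.04 ± 0.04, adjusted p = 0.505). The difference between lines was 1.90 ± 0.08 (adjusted p = 5.61e-07). The fall of Il2ra and the rise of Il2rb reversed the order of the IL-2 receptor chains in Scid.adh.2c2: with the Bcl11b guide Il2rb (126 RPKM) and Il2rg (111 RPKM) were both above Il2ra (43.6 RPKM).

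Il2ra had 18 sites, 9 of them in both lines, with 6 Bcl11b peaks in Scid.adh.2c2 and 7 in ILC2/b6, of which 2 were shared. The first shared Bcl11b site was the promoter printed above: Bcl11b, Runx1 and Runx3 peaks were centred 73 to 100 bases before the start in Scid.adh.2c2 and 96 to 176 bases before it in ILC2/b6. There the Runx scores were 46.2 (Runx1) and 80.4 (Runx3) in Scid.adh.2c2 and 221.2 and 306.4 in ILC2/b6, the highest of all Il2ra peaks in that line for both factors. The other shared Bcl11b site lay 19.5 kb upstream and held Bcl11b, Runx1 and Runx3 in both lines. It had the highest Bcl11b score of an Il2ra peak in Scid.adh.2c2 (68.0, at chr2:11544816-11545052). Several sites belonged to 1 line. Scid.adh.2c2 alone had all 4 factors 5.54 kb upstream, and Bcl11b with Runx1 and Runx3 in an intron 15.04 kb past the start. ILC2/b6 alone had all 4 factors at 4 upstream sites, 1.30, 7.47, 13.0 and 14.3 kb before the start. GATA3 was the factor most often shared at this gene, with 6 of its 8 peaks in Scid.adh.2c2 and 6 of its 10 in ILC2/b6, the shared ones all in introns.

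Il15ra, the chain that binds IL-15 and presents it to other cells (NM_001271500, chr2:11627339-11655612, plus strand), starts 12.5 kb past the end of Il2ra. Its level was 13.9 and 14.4 RPKM in the Scid.adh.2c2 controls and 15.9 and 15.5 RPKM with the Bcl11b guide. The groups did not overlap, as for 80% of all genes tested, and the change was small (0.14 ± 0.05, adjusted p = 0.0444). It was lost without control library 1 (adjusted p = 0.0530), guide library 1 (0.302) or guide library 2 (0.193), with no filter (0.0534), in the joint fit (0.508), with the replicate block (0.0716) and with median-centred values (0.01, adjusted p = 0.848), and was -0.00139 with quantile normalization. Libraries of ILC2/b6 overlapped, with 4.55 and 6.01 RPKM against 4.32 and 6.39 RPKM (0.01 ± 0.18, adjusted p = 0.986). The wide SE there leaves room for changes larger than that of the other line, and the difference between lines was -0.14 ± 0.23 (adjusted p = 0.664). Il15ra had 7 sites, 2 shared by the lines, both GATA3. Of its sites, 3 with GATA3 in ILC2/b6 (18.6, 13.3 and 12.3 kb before its start) lie within the span of Il2ra. Bcl11b had 1 peak near the start in each line, 47 bases past it in Scid.adh.2c2 and 112 in ILC2/b6. The 2 intervals do not overlap, and these distances are counted from different start sites of the gene.

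Il7r, the chain for IL-7 that also serves the TSLP receptor (NM_008372, chr15:9435914-9459631, minus strand), fell in Scid.adh.2c2 from 27.3 and 29.7 RPKM to 14.7 and 14.99 RPKM. The groups did not overlap (-0.92 ± 0.05, adjusted p = 1.01e-05). In ILC2/b6 they overlapped, with 64.9 and 71.9 RPKM against 66.1 and 65.1 RPKM (-0.06 ± 0.05, adjusted p = 0.497). The difference between lines was 0.86 ± 0.08 (adjusted p = 7.14e-05).

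Il7r had the most peaks of the 9 genes, 25 in Scid.adh.2c2 and 60 in ILC2/b6 (20 and 47 by gene name alone), at 36 sites. Of these, 10 were shared by the lines, 19 were in ILC2/b6 alone and 7 in Scid.adh.2c2 alone. The gene name decides the count for Bcl11b: ILC2/b6 had 1 Bcl11b peak with the name Il7r and 9 more whose nearest promoter is an Il7r transcript, and Scid.adh.2c2 had 2 and 1. The 10 Bcl11b peaks of ILC2/b6 spread from 50.8 kb upstream to an intron 5.71 kb past the start. The highest had a score of 79.3, 26.3 kb upstream at chr15:9485810-9486064. At 5 sites of ILC2/b6 all 4 factors had a peak (5.67 kb past the start and 3.58, 24.6, 26.2 and 50.8 kb before it). In Scid.adh.2c2 the Bcl11b peaks lay 37.6 kb past the start, where Runx1 and Runx3 also had peaks, and 37.4 and 50.8 kb before it. The site 50.8 kb upstream was the 1 Bcl11b site of Il7r found in both lines. It and the sites farther upstream, up to 89.0 kb, are annotated as introns. They lie outside the span of Il7r given above, so these are not introns of that transcript. Right at the start of Il7r, Runx3 had a peak in both lines and Runx1 in Scid.adh.2c2, and Bcl11b in neither.

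Il9r, the IL-9 receptor chain (NM_001134458, chr11:32088997-32100279, minus strand), fell in Scid.adh.2c2 from 11.5 and 12.01 RPKM to 4.44 and 4.91 RPKM (-1.25 ± 0.07, adjusted p = 9.79e-06). Every guide library was below both controls. The ILC2/b6 groups overlapped, at 45.02 and 48.6 RPKM against 42.4 and 45.4 RPKM (-0.09 ± 0.05, adjusted p = 0.290, where 59.9% of all genes tested had groups that did not overlap), and the difference between lines was 1.15 ± 0.09 (adjusted p = 2.18e-05). Of its 5 sites 4 were in both lines. Its promoter, printed above, was the 1 site among all 96 of the receptor genes where all 4 factors had a peak in both lines. The peaks were centred 18 to 56 bases before the start in Scid.adh.2c2, and from 80 bases before it to 11 past it in ILC2/b6. Within their own lists, the GATA3 peaks scored above 98.9% and 99.1% of peaks in Scid.adh.2c2 and ILC2/b6, and the Bcl11b peaks above 84.4% and 89.5%. An intron site 4.0 kb past the start held Bcl11b, GATA3 and Runx3 in both lines and Runx1 in ILC2/b6, where its GATA3 score of 357.7 exceeded those of 99.9% of that list. A site 35.0 kb past the start had Bcl11b, Runx1 and Runx3 in Scid.adh.2c2 and Runx3 alone in ILC2/b6.

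Il21r, the IL-21 receptor chain (NM_021887, chr7:132746943-132777084, plus strand), was low in both lines and moved in opposite directions. In Scid.adh.2c2 it rose from 1.198 and 1.21 RPKM to 3.68 and 3.35 RPKM (1.24 ± 0.09, adjusted p = 3.37e-05). In ILC2/b6 it fell from 2.19 and 2.08 RPKM to 1.51 and 1.12 RPKM (-0.55 ± 0.12, adjusted p = 0.0247), without overlap in either line. The fall lost its call without control library 1 (adjusted p = 0.0786), without guide library 2 (0.0932) and with no filter (0.108). The difference between lines was -1.78 ± 0.15 (adjusted p = 3.25e-05). No GATA3 peak was assigned to Il21r in either line. Bcl11b had 3 peaks in Scid.adh.2c2 and 6 in ILC2/b6, 1 of them shared, in an intron 27.1 kb past the start with Runx1 and Runx3 in both lines. The promoter printed above held 1 peak, Runx3 in ILC2/b6, 51 bases before the start with a score of 44.7. In ILC2/b6 the highest scores were 22.0 kb upstream (39.9 for Bcl11b, 108.2 for Runx1 and 221.6 for Runx3), in the stretch between Il4ra and Il21r, whose genes are 24.0 kb apart.

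Il4ra, the chain that binds IL-4 and is shared with the IL-13 receptor (NM_001008700, chr7:132695796-132722988, plus strand), was near the limit of detection in Scid.adh.2c2, with 7, 2, 8 and 11 reads in control libraries 1 and 2 and guide libraries 1 and 2 (0.032, 0.011, 0.039 and 0.054 RPKM), where a count of 0 would allow up to 3 reads by counting error alone. It failed the filter on low values there, and without the filter its log2 fold change was 0.07 (adjusted p = 0.187). In ILC2/b6 it was at 85.5 and 80.9 RPKM in the controls and 75.8 and 73.7 RPKM with the Bcl11b guide. Both guide libraries were below both controls (-0.15 ± 0.04, adjusted p = 0.0478), with adjusted p up to 0.283 when single libraries are left out. The difference between lines (-0.22 ± 0.08, adjusted p = 0.0545) says little, since the effect in Scid.adh.2c2 rests on 2 to 11 reads and Il4ra entered that test only through ILC2/b6. Il4ra had 27 peaks in ILC2/b6 and 1 in Scid.adh.2c2, a Runx3 peak in an intron 4.06 kb past the start with a score of 17.1. Of its 10 sites 9 were in ILC2/b6 alone. Bcl11b had 6 peaks in ILC2/b6, the highest with a score of 107.2 in an intron 2.26 kb past the start (chr7:132697930-132698184). All 4 factors met at 3 sites, 11.4 and 8.65 kb before the start and 9.25 kb past it. At the promoter Runx3 alone had a peak, 105 bases before the start, in a window that holds none of the motifs searched.

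**Figure D3:**
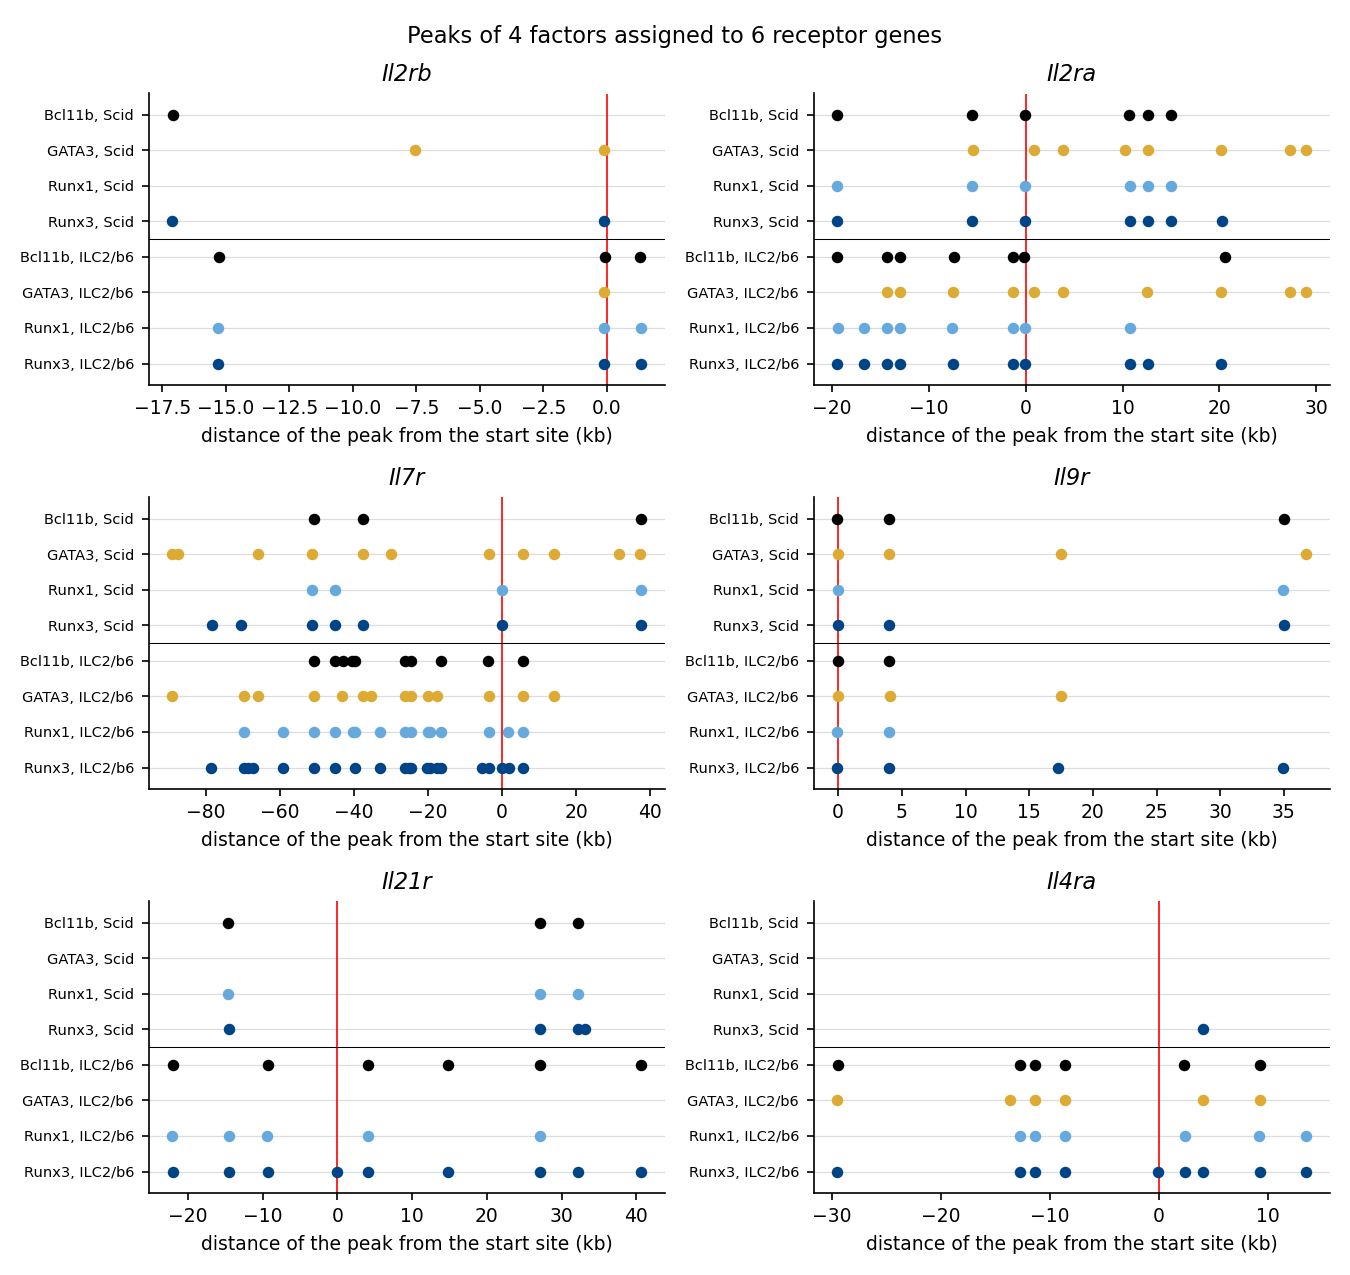
Distance in kb from the start site of every peak assigned to 6 of the genes, 1 row for each factor and line, Scid.adh.2c2 above the black line and ILC2/b6 below it, with a red line at the start (negative is upstream). Scales differ between genes. Il4ra has 1 peak in Scid.adh.2c2 and 27 in ILC2/b6, while Il9r has peaks of all 4 factors at its start in both lines.

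By gene name, the receptor genes held 16 Bcl11b, 28 GATA3, 14 Runx1 and 24 Runx3 peaks in Scid.adh.2c2 and 28, 39, 39 and 58 in ILC2/b6. With the Il7r peaks that lack a name the Bcl11b counts were 17 and 37. Of the named Bcl11b peaks, 6 of 16 in Scid.adh.2c2 overlapped a Bcl11b peak of the other line, 37.5% against 43.1% over the whole list, and 5 of 28 in ILC2/b6, 17.9% against 35.6%. With the unnamed peaks the shares were 35.3% and 16.2%. Of GATA3 peaks, 19 of 28 in Scid.adh.2c2 (67.9%, against 47.3%) and 19 of 39 in ILC2/b6 (48.7%, against 51.8%) were shared. For Runx3 the shares were 66.7% against 60.4% and 29.3% against 27.6%, and for Runx1 57.1% against 50.7% and 20.5% against 26.4%. The shares of the receptor genes were thus on either side of those of the whole lists, with no test, since each list is 1 set made from both replicates. The lists differ in length, so the larger counts of ILC2/b6 do not by themselves compare binding between lines.

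Merging overlapping peaks of all factors and lines, with the unnamed Il7r peaks included, gave 96 sites. Of these, 32 (33.3%) had a peak in both lines, 48 (50%) in ILC2/b6 alone and 16 (16.7%) in Scid.adh.2c2 alone. Over all 96836 merged sites the shares were 31.5%, 40.7% and 27.9%. Sites of ILC2/b6 alone thus outnumbered those of Scid.adh.2c2 alone in the whole lists too. Bcl11b was present at 17 sites in Scid.adh.2c2 and 37 in ILC2/b6, and at 6 in both: 2 each of Il2ra and Il9r and 1 each of Il7r and Il21r. Few Bcl11b peaks were at promoters: by name 3 of 16 (18.8%) in Scid.adh.2c2 and 5 of 28 (17.9%) in ILC2/b6 lay within 1 kb of a start, against 43.8% and 33.6% over the whole lists. Most overlapped a Runx1 peak of the same line, 11 of 16 and 22 of 28, against 61.2% and 71% of all Bcl11b peaks. Set beside the RNA of Scid.adh.2c2, the 3 genes that fell had 6 (Il2ra), 3 (Il9r) and 3 (Il7r, 2 by name) Bcl11b peaks. Of the 5 that rose, Il21r had 3, Il2rb and Il15ra 1 each and Il2rg and Jak3 0. Neither Il2ra nor Il7r passed the test in ILC2/b6. Il2ra had 7 Bcl11b peaks there, the most by name, and Il7r had 10 with the unnamed peaks and 1 by name. Il4ra and Il21r had 6 each, Il2rb 3, Jak3 and Il9r 2 each, Il15ra 1 and Il2rg 0. With 9 genes these counts are a description, and no link to the RNA was tested.

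**Figure D4:**
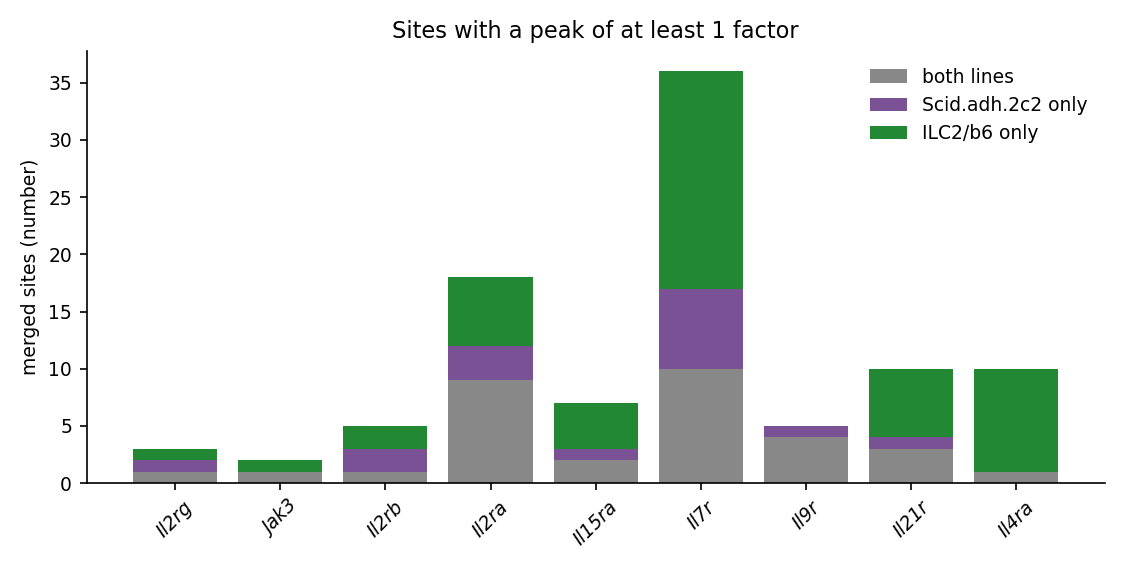
Number of merged sites with a peak of at least 1 factor for each gene, stacked by whether the site has a peak in both lines, in Scid.adh.2c2 alone or in ILC2/b6 alone. Il7r has 36 sites, 19 of them in ILC2/b6 alone, and 9 of the 10 Il4ra sites are in ILC2/b6 alone. The Il7r sites include the peaks without a gene name.

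Counts for the other genes of the pathway are to be read against the 57.8% (35.1% up and 22.7% down) of all genes called in Scid.adh.2c2 and the 14.5% called in ILC2/b6. The filter asked for 1 RPKM in 2 libraries of a line. In Scid.adh.2c2 Il4, Il13, Pik3cd, Socs2, Bcl2 and Prdm1 had at least 1 control under 1 RPKM and passed it only through the guide libraries, where they are high, so their rise had to appear and the counts of their lists are no support for it. Among ligands, Il4 and Il13, type 2 cytokines, were the 2 of 8 that were tested there, and both were higher with the guide, Il4 from 0.316 and 0.149 RPKM to 3.64 and 4.16 RPKM (2.59 ± 0.14, adjusted p = 5.16e-06) and Il13 from 2.21 and 0.816 RPKM to 7.65 and 8.43 RPKM (2.18 ± 0.29, adjusted p = 0.000633). In ILC2/b6, where Il13 was at 4472 and 4406 RPKM, it fell to 3025 and 3151 RPKM (-0.52 ± 0.04, adjusted p = 0.000487). Il4 fell there from 32.0 and 34.3 RPKM to 24.7 and 26.5 RPKM (-0.37 ± 0.05, adjusted p = 0.00522). Both effects differed between lines, by -2.96 for Il4 (adjusted p = 2.42e-06) and -2.70 for Il13 (adjusted p = 0.000674).

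Of the 9 JAK and STAT signal genes tested in Scid.adh.2c2, where 35.1% of all genes rose and 22.7% fell, 7 rose and 2 fell, with a median log2 fold change of 1.07 against 0.05 over all genes. Among the rises were Stat2 (1.83), Jak2 (1.21) and Stat3 (1.15). Stat2 went from 9.68 and 9.54 RPKM to 35.0 and 36.1 RPKM. The genes that fell were Stat5a (-0.33, adjusted p = 0.00190) and Stat5b (-0.20, adjusted p = 0.0146), the STATs of the IL-2, IL-7, IL-9 and IL-15 receptors. In ILC2/b6, 2 of 10 rose (8.32% of all genes did), Stat4 (0.38) and Stat5a (0.23), and 8 did not pass the test. The Stat5a effect differed between lines by 0.57 (adjusted p = 0.000443).

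Of the partner and related receptor chains, 4 of 8 rose and 2 fell in Scid.adh.2c2, against 57.8% of all genes called. Il12rb1, a chain of the IL-12 and IL-23 receptors, rose by 1.98 and Crlf2, the chain that pairs with Il7r for TSLP, by 0.91 (from 6.81 and 5.93 RPKM to 12.1 and 12.7 RPKM). Il12rb2 (0.78) and Ifngr1 (0.31) also rose, and Il27ra (-0.33) and Il6st (-0.31) fell. So the partners of the TSLP receptor moved in opposite directions, Il7r down and Crlf2 up. In ILC2/b6, against 14.5% of all genes called, 2 of 11 rose, Csf2rb2 (0.76) and Csf2rb (0.25), which are close paralogs whose reads may be split uncertainly, and 2 fell, Il27ra (-0.33) and Il10ra (-0.21). Of the adaptors and phosphatases, 7 of 10 rose in Scid.adh.2c2 (35.1% of all genes did). The largest change was that of Pik3cd, a PI3-kinase subunit (2.00, from 0.887 and 0.968 RPKM to 5.21 and 5.22 RPKM). It passed the filter only through the guide libraries. Grb2 (0.38), Shc1 (0.36) and Ptpn6 (0.28) followed. In ILC2/b6 3 of 12 were called, against 14.5% of all genes: 2 rose, Sh2b3 (0.78) and Pik3r1 (0.18), and Akt1 fell (-0.22).

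Of the targets and feedback inhibitors of STAT5 and STAT6, 10 of 15 rose and 4 fell in Scid.adh.2c2, against 57.8% of all genes called. Those that rose include Socs2, Bcl2 and Prdm1, which passed the filter only through the guide libraries. In ILC2/b6, 1 of 18 rose and 3 fell, against 14.5% of all genes called. Of the SOCS genes, feedback inhibitors of cytokine signals, Socs3 fell in Scid.adh.2c2 from 12.4 and 13.7 RPKM to 3.43 and 3.94 RPKM (-1.69 ± 0.09, adjusted p = 4.56e-06). Socs2 went from 0.887 and 1.12 RPKM to 4.52 and 4.16 RPKM (1.69 ± 0.11), a rise that had to appear given the filter. The other leading rises were the transcription factor genes Batf (2.38), Id2 (2.24) and Prdm1 (1.71), and Myc (-0.48), Pim2 (-0.24) and Ccnd3 (-0.14) fell. In ILC2/b6 Socs1 rose (0.24), and Pim1 (-0.34), Prdm1 (-0.25) and Cish (-0.16) fell.

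For each member called in at least 1 line, the 3 genes with the most similar log2(RPKM + 0.5) over the 8 libraries were found among 11600 genes. The 8 libraries form 4 groups of 2, so high correlations come easily and are given as a description. Il7r and Il9r were in each other's top 3 (Pearson r = 0.9985), Il2ra was in that of Il7r (0.998), and Socs3 was in the top 3 of all of Il2ra, Il7r and Il9r (0.998 to 0.9996), the genes that fell in Scid.adh.2c2. Tnfrsf8, the receptor CD30, was in those of Il2ra and Il9r (0.999 each), with Prkar2b the other for Il2ra. Il2rb was nearest to Itgb2, the integrin beta chain of leukocytes (0.9996), H2-K2 and Sh2d3c. Il2rg was nearest to Tln1, Prf1, the perforin gene, and Slc50a1 (0.9985 to 0.999). Jak3 was nearest to Crlf2, Coro1a and Myl6 (0.9989 to 0.9992). Il21r had weaker likeness (Dhx32, Txnrd1 and Cab39, 0.965 to 0.990), Il15ra was nearest to Rufy2, Rab11fip2 and Abhd1 (0.994 each), and Il4ra to Ttll1, Magi1 and Bcl2l2, which like it are near 0 in Scid.adh.2c2.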

How the data were processed

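The members, lists and tests were chosen with earlier results of these data known. The authors deposited RPKM values for 24475 genes (1 table a line, 1 column a library) and 8 peak lists (1 for each factor in each line). Both replicates went into each list, an IDR (irreproducible discovery rate) set annotated on mm9 by HOMER, per the file headers. The peak scores are the authors' and, as deposited, start at about 15, so they rank peaks only within a list. Per the submitters' processing notes, the tools were Bowtie 1.1.1, HOMER, Trimmomatic, STAR 2.4.0, RSEM 1.2.25 and edgeR 3.6.8, and the named builds are mm9 and NCBIM37. The sources used here do not give what each did. Single-end reads of 50 nt came from an RNA kit not named as strand-marking, so antisense reads cannot be told apart.

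Steps between low RPKM values gave the read totals: 100% of the 2081 to 2575 values tested per library were whole reads within 0.1 read. The filter kept genes that reached 1 RPKM in 2 or more libraries of the line. The test was limma 3.58.1 (R 4.3.3) with trend on log2(RPKM + 0.5), a scale that understates the change of low genes, and p-values were adjusted over all tested genes by Benjamini-Hochberg and called at 0.05. The difference between lines was the interaction over 8 libraries, on genes passing in at least 1 line. The scripts were tested on simulated data. Peaks overlapping by at least 1 bp were counted as shared. All 9 members are named, and of each list the called genes with the largest change, up to 4 per direction and line, except 1 that is not reported here. The lists hold the ligands, partner chains, JAK and STAT genes, adaptors and phosphatases, and STAT5 and STAT6 targets. Input libraries, labelled FA or DSG in each line, were not used here. The labels do not say which kind belongs to which factor, so whether samples of all factors were prepared alike is not known. Alternatives covered the pseudocount, filter, scaling, joint fit, replicate block, leaving out each library, peak threshold, overlap, a 50 kb window and unnamed peaks.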

Additional observations from a re-analysis of the deposited data

Results flagged for a closer look

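The Bcl11b guide had different effects in the 2 lines, by the limma interaction test, for 7 of the 9 receptor genes. The same test called 45.1% of all 11600 genes. The differences below are ILC2/b6 minus Scid.adh.2c2 on the log2 scale, with adjusted p. They were -5.89 for Il2rb (1.39e-08), which rose in Scid.adh.2c2 alone, and 1.90 for Il2ra (5.61e-07), 1.15 for Il9r (2.18e-05) and 0.86 for Il7r (7.14e-05), which fell in Scid.adh.2c2 and passed no test in ILC2/b6. They were -1.78 for Il21r (3.25e-05) and -1.06 for Jak3 (6.42e-05), which moved in opposite directions in the lines, though their falls in ILC2/b6 do not hold without single libraries. The difference was -0.90 for Il2rg (1.10e-06), which rose in both lines. These 7 differences kept their direction and call under every alternative tried. Line and medium differ together, so their parts in these differences cannot be told apart.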

How the results depend on the processing

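Of 313 values of single genes recomputed under the alternatives, 281 kept their direction and side of the threshold. In Scid.adh.2c2 leaving out 1 library gave 3760 to 6878 called genes (5908 with all) and 4 to 5 members up. In ILC2/b6 it gave 807 to 2099 called genes (1530 with all) and 0 to 3 members down (3 with all). With no filter ILC2/b6 had 615 called genes and 0 members down, and the joint fit left 1 member down. Il15ra reversed to -0.00139 in Scid.adh.2c2 with quantile normalization. In ILC2/b6, where it was not called, quantile normalization reversed it to -0.033 and median-centring to -0.028, and it lay between -0.25 and 0.26 when 1 library was left out (-0.18 without control library 1). Its difference between lines then lay between -0.40 and 0.12 (0.05 without ILC2/b6 control library 2). Also uncalled in ILC2/b6, Il2rb was 0.00315 with quantile normalization and Il7r lay between -0.13 and 0.015 when 1 library was left out. The Il4ra difference between lines passed the test with a pseudocount of 0.1 (adjusted p = 0.0497) and without Scid.adh.2c2 control library 1 (0.0355). The cause was not tested.

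Libraries share a replicate number across guides, but same-numbered libraries barely deviated together (correlation 0.106 in ILC2/b6 and 0.04 in Scid.adh.2c2, 2 pairs each), so the number is not taken as a pairing. With the replicate block 5921 genes were called in Scid.adh.2c2, 2258 in ILC2/b6 and 4878 for the difference (5234 without it). Of the members, the call of Il15ra in Scid.adh.2c2 was lost (4 up instead of 5), and no other call changed.

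Of 56 peak counts recomputed under alternatives, the 23 that moved most in ratio are given here, and the other 33 stayed nearer the main counts. With a threshold of 2 times the lowest score, peaks by name fell to 6 (Bcl11b), 18 (GATA3), 9 (Runx1) and 13 (Runx3) in Scid.adh.2c2. In ILC2/b6 they fell to 17 (Bcl11b) and 22 (GATA3). Shared peaks then were 4 (Runx1) and 10 (Runx3) of Scid.adh.2c2 and 3 (Bcl11b) and 12 (GATA3) of ILC2/b6. Counting every peak within a gene or up to 50 kb to either side of it gave 38 (Bcl11b), 30 (Runx1) and 44 (Runx3) in Scid.adh.2c2. In ILC2/b6 it gave 55 (Bcl11b) and 90 (Runx3). Of the peaks so counted, 14 (Bcl11b), 30 (GATA3), 14 (Runx1) and 26 (Runx3) were shared in each line. The unnamed Il7r peaks, added after seeing the data, raised Bcl11b from 16 to 17 and from 28 to 37. Peaks rest on 2 libraries per list, and their depth is not used here.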
